A study of Mus musculus with 9 samples.

Results

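Genes of cell proliferation and DNA replication were followed in mouse mammary fibroblasts grown with or without carcinoma cells. The members were taken by name: 52 genes were listed in 3 classes, namely 8 G1 cyclins and kinases, 17 replication genes and 27 genes of G2 and mitosis. Of these, 50 had a row among the 11931 genes of the table, and the expression of Cdk1 and Cdk6 is not analysed here. All groups consisted of normal mammary fibroblasts from the mammary fat pad of female BALB/c mice aged 12 weeks, left on collagen for 1 week before the assay. The reference group was kept as a monoculture for 5 days, and the other groups were grown beneath 4T1-GFP cells, a BALB/c mammary carcinoma line labelled with green fluorescent protein, for 3 days or for 5 days. Cells in every group were sorted as GFP- PDPN+, that is without the carcinoma label and with podoplanin on the surface, and each group had 3 libraries made from the 3′ ends of mRNA. No monoculture of 3 days was among the samples, so the 3-day comparison differs in days as well as in co-culture.

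The cell cycle runs through G1, DNA synthesis, G2 and mitosis. D-type cyclins with CDK4 or CDK6, followed by cyclin E with CDK2, phosphorylate the retinoblastoma protein and release E2F factors, which switch on genes for licensing origins, for making deoxynucleotides and for copying DNA. A later wave of genes builds the spindle and ends mitosis. Their promoters often hold a CHR element, which the DREAM and MuvB complexes bind, and CCAAT boxes, which the factor NF-Y binds. Fibroblasts in culture divide while they have space and growth factors, and cyclin D1 in particular is induced by mitogens.

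Normalised counts are given throughout, meaning reads per gene divided by a factor of each library, and are compared only for the same gene between libraries. A single read was worth between 0.4807 and 1.6606 units, and libraries held 2623911 to 3567326 reads in the monocultures, 1048471 to 2579766 after 3 days of co-culture and 1459381 to 1987168 after 5 days. Nothing in the labels says that replicates came from separate cultures or animals, so p-values measure only the spread between these samples, which may be technical. Markers of epithelial and carcinoma cells moved with co-culture: 16 of 18 listed had a row, and their summed level was 74.7 to 105.9 in the monocultures, 1130.6 to 1285.5 at 3 days and 1107.6 to 1544.2 at 5 days, with 13 of 15 tested markers higher and 1, Cdh3, lower at both times. In the monocultures Cldn3 and Elf3 were at 0 in all 3 libraries, and Epcam and Cdh1 were at 0 in 2 of 3. The basal markers Krt14 and Sfn and the pericyte marker Cspg4 were also higher at both times by limma. The pericyte marker Mcam and the immune and endothelial markers tested were called at neither time. The summed level of 11 fibroblast markers was 43984.3 to 61341.9 in the monocultures, 43640.5 to 54929.1 at 3 days and 38958.5 to 53380.4 at 5 days. By limma, 4 of 11 were lower at 3 days, and 5 were lower and 1 higher at 5 days. Pdgfra, Pdgfrb, Col3a1 and Thy1 were lower at both times and Dcn at 5 days, and Vim was higher at 5 days. The sum is weighted by Col1a1 and Col1a2 (monoculture means 19219.8 and 12280.1), which were called at neither time, so it hides these changes. The part of carcinoma cell RNA in the values below was not tested, and in sorted bulk samples fewer dividing cells and less RNA per cell cannot be told apart.

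Monoculture replicate 3 was the highest of all 9 libraries for 28 of the 44 members tested and the highest monoculture for 36 of them. How often it was the highest over all genes was not counted, so this is not read as particular to these members. Results that rest on it are therefore given with and without it. Fits without a library hold fewer samples, and the shares of all genes called in them are not given here. The heading of 1 column, used as 5-day co-culture replicate 2, lacks any mention of 4T1 and was assigned by its remaining words, since monoculture replicate 2 has a column of its own. Its summed epithelial and carcinoma markers came to 1107.6.

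Of the 50 members with a row, 44 reached a normalised count of 5 in at least 3 libraries and were tested, and 39 of those reached it in all 9 libraries. The remaining 6 were Ccne2, Cdc6, Tyms, Bub1, Hmgb2 and Stmn1, whose highest value in any library was 6.2. Against the monoculture, 7 members were lower after 3 days of co-culture and 0 were higher (limma, Benjamini-Hochberg adjusted p under 0.05). Those 7 were 15.9% of the members tested, and 9.37% of all 10639 genes tested were called lower in that comparison and 10.6% higher. After 5 days, 11 members, or 25% of those tested, were lower and 2 were higher, where 11.4% of all genes were called lower and 12.6% higher. Between the co-cultures, 2 members were lower at 5 than at 3 days and 0 were higher, where 3.71% of all genes were lower and 3.20% higher. At an unadjusted limma p under 0.05, 1 member was higher and 9 were lower at 3 days than in the monoculture. At 5 days 2 were higher and 16 lower than in the monoculture, and 3 were higher and 10 lower at 5 than at 3 days. The shares of all genes at that unadjusted threshold are not given here. As higher, edgeR and DESeq2 each called 0 members at 3 days against the monoculture and 0 between the co-cultures. By edgeR on the recovered reads, the same 7 members were lower at 3 days (10.2% of all genes lower, 10.9% higher), the same 11 and Cdk2 were lower and the same 2 higher at 5 days (12.7% and 13.0% of all genes), and the same 2 were lower at 5 than at 3 days (3.44% of all genes lower, 2.92% higher). The comparisons with the monoculture use the same 3 monoculture libraries, so their values are given side by side and nothing is read from their likeness.

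The median log2 fold change of the 44 members was -0.37 at 3 days and -0.59 at 5 days against the monoculture, beside 0.00 and -0.01 over all genes tested. Negative values were found for 36 of 44 members at 3 days and for 39 of 44 at 5 days, beside 49.9% and 50.6% of all genes. All 3 libraries lay below all 3 monocultures for 8 of 44 members at 3 days and for 14 of 44 at 5 days, where 18.1% and 20.1% of all genes tested did so. All 3 lay above for 0 members at 3 days and 1, Ccnd2, at 5 days, where 19.2% and 20.8% of all genes did so. Leaving out monoculture replicate 3 brought the medians to -0.15 and -0.37, and the negative values to 29 and 35. Without that library 3 members were called lower at 3 days (Cdk4, Mcm3 and Rrm2) and 3 at 5 days (Plk1, Rrm2 and Ube2c), and Cenpa was called higher at 3 days.

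**Figure D1:**
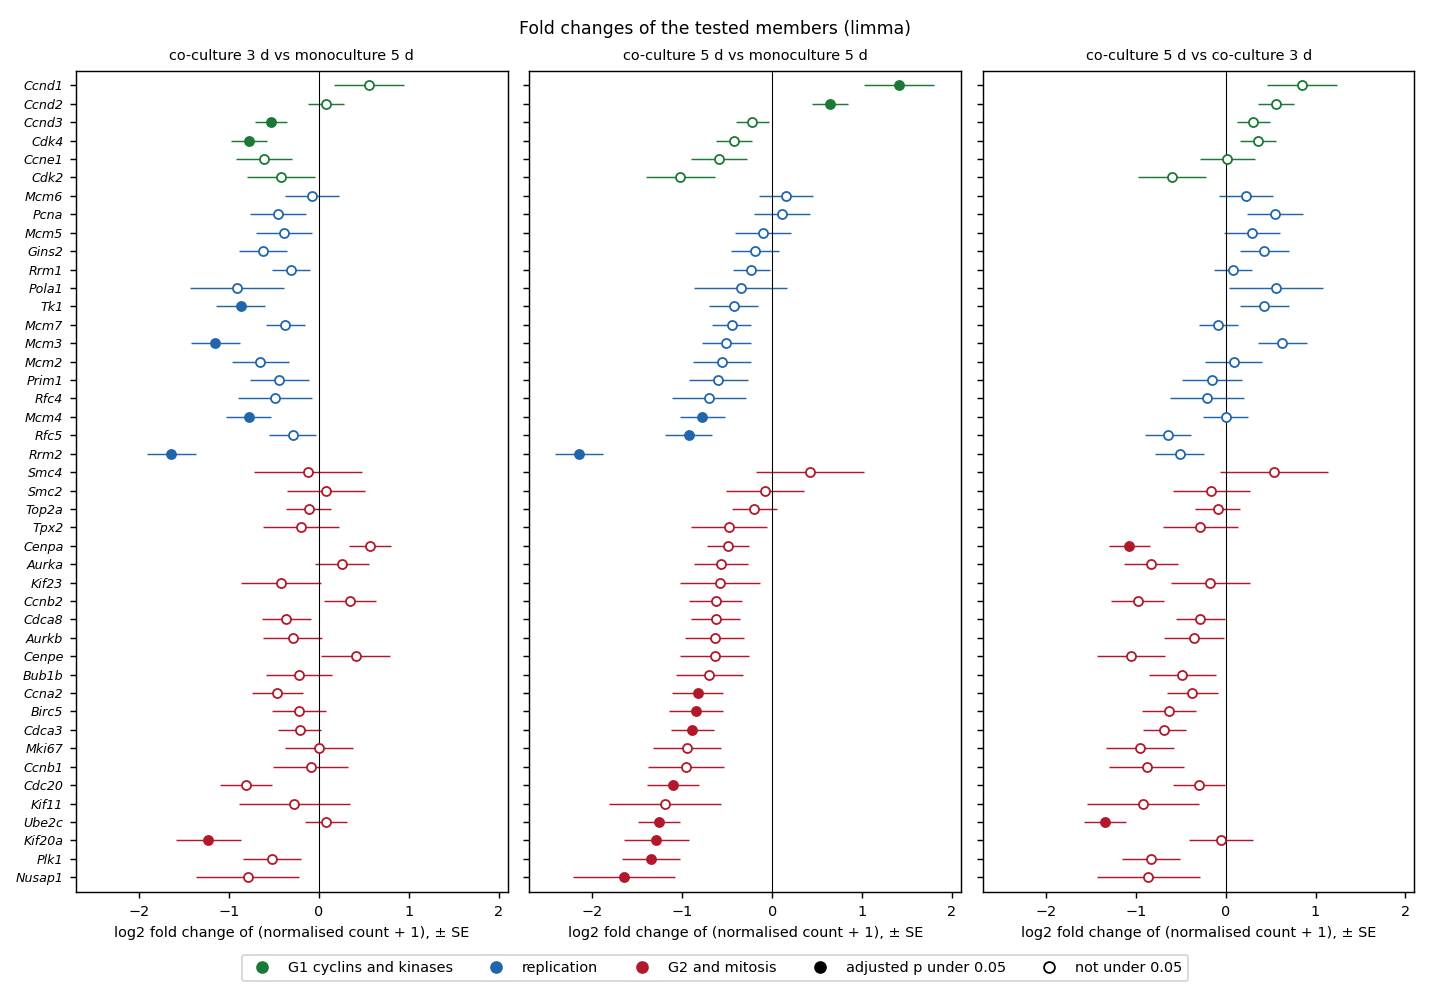
Log2 fold change of (normalised count + 1), with its standard error, of the 44 tested members in the 3 comparisons, ordered by class and by the value at 5 days of co-culture against monoculture. Filled points have a limma adjusted p under 0.05: 7 in the left panel, 13 in the middle and 2 in the right, and all 15 replication genes lie below 0 in the left panel.

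The calls of Mcm3, Rrm2, Plk1, Ube2c and Cenpa held under all 20 alternative analyses, and their promoters are printed here to show which cell-cycle elements lie around the starts of the genes that the results turn on. The sequences are from RefSeq on GRCm38.p6, the mm10 build, from 250 bases before to 50 bases after the annotated start, and they come from the reference strain, not from these BALB/c cells. The searched motifs were CCAAT, the CHR element as TTTGAA or TTCGAA, and the E2F site as TTTGGCGC, TTTCGCGC, TTTCCCGC or TTTGCCGC. Both strands were searched and overlapping matches count separately. Capitals mark the matches. The Mcm3 window is chr1:20820263-20820562 on the minus strand, and the others are on the plus strand: Rrm2 at chr12:24708004-24708303, Plk1 at chr7:122159185-122159484, Ube2c at chr2:164769679-164769978 and Cenpa at chr5:30666636-30666935.
Mcm3: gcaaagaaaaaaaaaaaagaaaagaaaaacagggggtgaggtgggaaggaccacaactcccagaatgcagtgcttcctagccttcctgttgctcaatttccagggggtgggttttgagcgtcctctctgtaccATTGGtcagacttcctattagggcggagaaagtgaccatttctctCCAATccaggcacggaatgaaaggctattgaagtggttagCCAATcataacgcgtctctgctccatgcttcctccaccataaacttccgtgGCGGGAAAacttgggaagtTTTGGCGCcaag
Rrm2: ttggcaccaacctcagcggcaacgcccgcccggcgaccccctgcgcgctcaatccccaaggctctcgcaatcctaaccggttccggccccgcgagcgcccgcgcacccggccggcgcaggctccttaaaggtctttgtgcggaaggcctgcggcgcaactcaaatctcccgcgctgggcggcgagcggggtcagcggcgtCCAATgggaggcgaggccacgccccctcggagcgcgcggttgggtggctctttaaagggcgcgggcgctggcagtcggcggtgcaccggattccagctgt
Plk1: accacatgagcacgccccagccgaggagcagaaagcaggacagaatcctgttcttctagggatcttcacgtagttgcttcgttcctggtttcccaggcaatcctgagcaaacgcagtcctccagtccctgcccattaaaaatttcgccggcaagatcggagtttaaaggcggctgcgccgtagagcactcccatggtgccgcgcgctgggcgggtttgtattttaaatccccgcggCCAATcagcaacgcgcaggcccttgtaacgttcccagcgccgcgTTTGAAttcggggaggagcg
Ube2c: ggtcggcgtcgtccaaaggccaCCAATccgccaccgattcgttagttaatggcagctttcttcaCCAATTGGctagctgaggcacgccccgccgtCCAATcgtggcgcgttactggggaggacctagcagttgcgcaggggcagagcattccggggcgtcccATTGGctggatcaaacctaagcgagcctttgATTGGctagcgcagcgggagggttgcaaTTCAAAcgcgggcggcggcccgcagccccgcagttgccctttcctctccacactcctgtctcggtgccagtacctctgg
Cenpa: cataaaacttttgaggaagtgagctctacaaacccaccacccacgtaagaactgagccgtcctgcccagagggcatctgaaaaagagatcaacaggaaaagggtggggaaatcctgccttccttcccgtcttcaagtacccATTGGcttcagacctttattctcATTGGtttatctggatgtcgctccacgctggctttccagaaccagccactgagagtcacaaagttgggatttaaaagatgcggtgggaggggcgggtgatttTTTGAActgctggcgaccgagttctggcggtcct
In these windows the replication genes Mcm3 and Rrm2 held 3 and 1 CCAAT boxes and no CHR letters, and Mcm3 held 2 E2F matches. The mitosis genes Plk1, Ube2c and Cenpa each held 1 CHR match, together with 1, 6 and 2 CCAAT boxes. All CCAAT matches in the 5 windows lay before the annotated start, the nearest beginning 14 bases before it in Plk1. The CHR match began 29 bases before the start in Ube2c, but 16 bases after it in Cenpa and 30 bases after it in Plk1, and both E2F matches of Mcm3 lay after the start, at 19 and 38 bases. Over the classes, 41 of the 52 listed genes had a promoter entry, Cdk1 and Cdk6 among them. Among 21 promoters of G2 and mitosis genes, 19 (90.5%) held CCAAT, 17 (81%) held CHR and 1 (4.76%) held E2F letters. Among 16 promoters of replication genes the numbers were 11 (68.8%), 2 (12.5%) and 6 (37.5%). Over all 32851 promoters of this length, the shares were 37.4% for CCAAT, 19.2% for CHR and 2.26% for E2F, and 7.52% held both CHR and CCAAT. Of the 8 G2 and mitosis genes that were lower at 5 days, 6 had an entry, and 4 of those held both CHR and CCAAT. Among all 21 promoters of that class, 17 (81%) held both. Birc5 and Nusap1, also lower at 5 days, held none of the searched motifs. A match is a description of letters and shows no binding.

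Among the 6 G1 genes tested, 2, cyclins D1 and D2, were higher by limma after 5 days of co-culture, where 12.6% of all genes were. Another 2, cyclin D3 and the kinase CDK4, were lower after 3 days, where 9.37% of all genes were. These calls fall at different times, and differences between the genes were not tested. Cyclin D1, encoded by Ccnd1 (chr7:144929931-144939925), is the mitogen-induced partner of CDK4. Its normalised counts were 276.0, 250.4 and 692.9 in monoculture, 843.6, 387.7 and 466.1 at 3 days, and 1354.0, 532.7 and 1250.9 at 5 days. Monoculture replicate 3 exceeded 5-day replicate 2, so the groups overlapped, although the log2 fold change at 5 days was 1.41 (SE 0.39, limma adjusted p = 0.015). This call was lost with DESeq2 and when monoculture replicate 1, monoculture replicate 2, 5-day replicate 1 or 5-day replicate 3 was left out, with adjusted p up to 0.079 over the alternatives. At 3 days the Ccnd1 difference was 0.56 (SE 0.39, adjusted p = 0.35).

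Cyclin D2, another D-type partner encoded by Ccnd2 (chr6:127125162-127152193), had normalised counts of 755.7, 539.3 and 789.9 in monoculture, 885.1, 646.0 and 663.6 at 3 days and 1292.9, 914.6 and 1032.5 at 5 days. Every 5-day library lay above every other library. The log2 fold change at 5 days against the monoculture was 0.64 (SE 0.20, limma adjusted p = 0.029), and against 3 days it was 0.56 (SE 0.20, adjusted p = 0.1). The 5-day call was lost under quantile normalization and without monoculture replicate 2, 5-day replicate 1 or 5-day replicate 3.

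Cyclin D3, a further D-type cyclin encoded by Ccnd3, was called lower at 3 days only. Its normalised counts were 660.4, 547.0 and 651.1 in monoculture, 494.9, 445.5 and 356.2 at 3 days and 532.8, 584.0 and 476.9 at 5 days. The 3-day libraries were all below the monocultures, with a log2 fold change of -0.53 (SE 0.18, limma adjusted p = 0.045), and the 5-day libraries overlapped the monocultures (-0.22, adjusted p = 0.4). The 3-day call was lost in a fit of those 2 groups alone and without any single monoculture library, 3-day replicate 2 or 3, or 5-day replicate 1 or 2. Cdk4 (chr10:127063534-127067920), the catalytic partner of the D cyclins, had normalised counts of 850.4, 963.3 and 787.3 in monoculture, 609.4, 473.4 and 441.0 at 3 days and 750.2, 760.9 and 473.2 at 5 days. All 6 co-culture libraries lay below the 3 monocultures. Its log2 fold change was -0.78 (SE 0.20, limma adjusted p = 0.013) at 3 days and -0.42 (SE 0.20, adjusted p = 0.16) at 5 days, and the 3-day call was lost without monoculture replicate 2 or 3-day replicate 2.

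The cyclin E arm did not pass the test. Ccne1, cyclin E1, had normalised counts of 83.6, 48.1 and 84.2 in monoculture, 49.8, 58.5 and 32.0 at 3 days and 33.2, 43.8 and 67.4 at 5 days. The groups overlapped, and the log2 fold changes were -0.61 and -0.59 (adjusted p = 0.18 and 0.19). Cdk2, the kinase that cyclin E activates, had means of 21.1, 15.3 and 9.77 in the monoculture, 3-day and 5-day groups. Its 5-day log2 fold change was -1.02 (SE 0.38, limma adjusted p = 0.066), and edgeR called it lower. Ccne2, cyclin E2, was not tested: its values lay between 0.0 and 4.8.

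**Figure D2:**
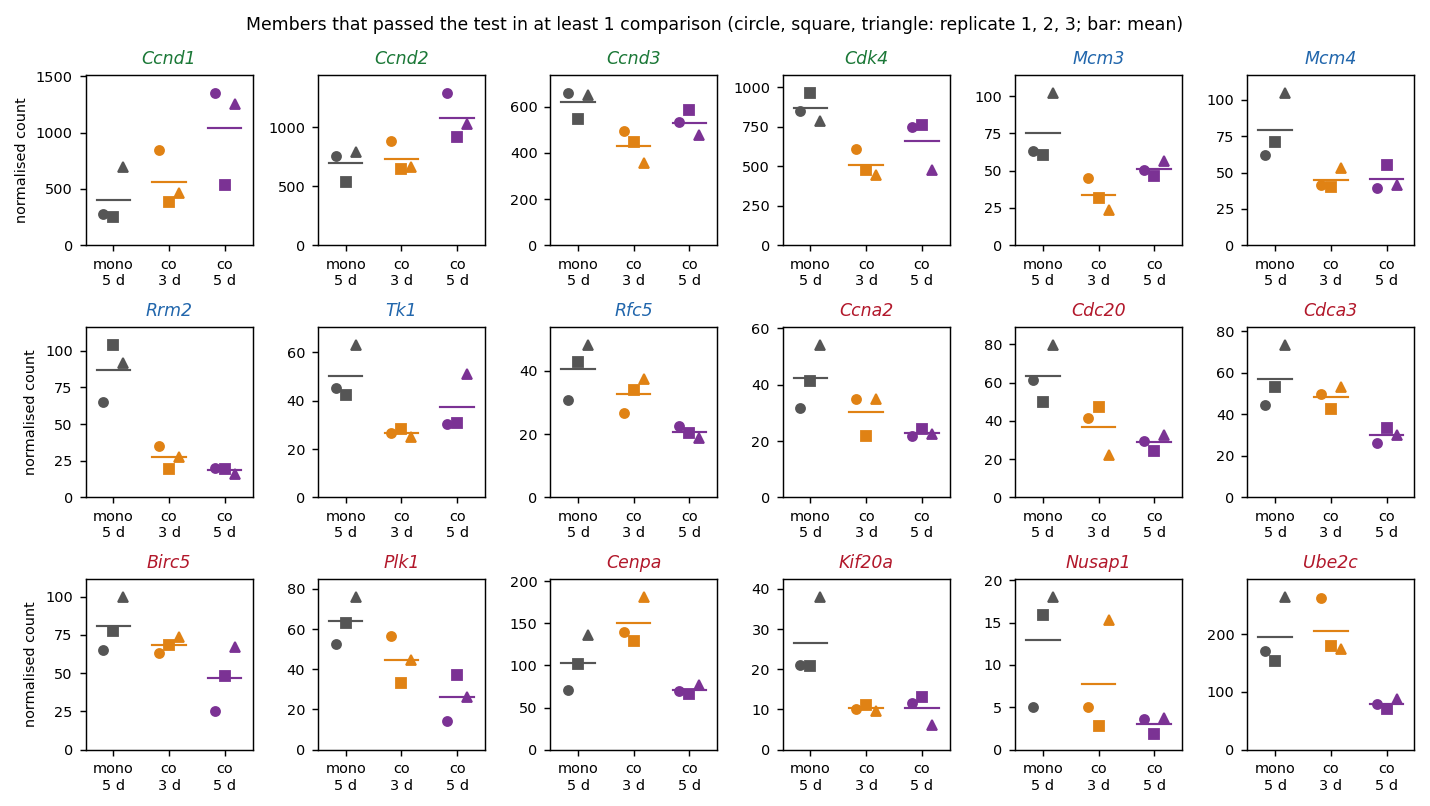
Normalised counts of the 18 members that passed the test in at least 1 comparison, 1 panel per gene with an axis from 0 for each (vertical axis: normalised count; horizontal axis: culture group). Points are the 3 libraries of a group and bars are means; Rrm2 separates all co-culture libraries (16.2 to 34.9) from the monocultures (65.0 to 103.8), and Ube2c separates the 5-day libraries (69.9 to 88.6) from the rest.

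Among the replication genes, 4 of 15 tested (26.7%) were lower at 3 days (Mcm3, Mcm4, Rrm2 and Tk1) and 3 of 15 (20%) at 5 days (Mcm4, Rfc5 and Rrm2). At either time 0 were higher by limma, edgeR or DESeq2. Of all genes tested, limma called 9.37% lower and 10.6% higher at 3 days, and 11.4% and 12.6% at 5 days. Without monoculture replicate 3, 2 of 15 were lower at 3 days and 1 of 15 at 5 days. The 3-day count was also 2 without 3-day replicate 1 or 2, and the 5-day count was also 1 without monoculture replicate 2 or 5-day replicate 3. All 15 log2 fold changes at 3 days were negative, with a median of -0.49, and 13 of 15 were negative at 5 days, with a median of -0.45. Without monoculture replicate 3 the negative values numbered 14 and 11. With each library left out in turn, the 3-day median lay between -0.68 and -0.36 and the 5-day median between -0.62 and -0.27. The largest difference among them was that of Rrm2 (chr12:24708241-24714146), the regulated subunit of ribonucleotide reductase, which makes the deoxynucleotides for DNA synthesis. Its normalised counts were 65.0, 103.8 and 91.3 in monoculture, 34.9, 19.5 and 27.8 at 3 days and 19.8, 19.6 and 16.2 at 5 days. Every co-culture library lay below every monoculture, and the mean was 3.16 times lower at 3 days and 4.68 times lower at 5 days. The log2 fold change was -1.64 (SE 0.27, limma adjusted p = 5.1e-04) at 3 days and -2.15 (SE 0.27, adjusted p = 3.0e-05) at 5 days, and over the 20 alternatives it stayed between -1.83 and -1.42 and between -2.34 and -1.94. Between 5 and 3 days the Rrm2 difference was -0.51 (SE 0.27, adjusted p = 0.3), with overlapping libraries. The large subunit of the same enzyme, Rrm1, had normalised counts of 181.3, 158.1 and 258.4 in monoculture, 176.0, 159.4 and 137.7 at 3 days and 187.8, 168.6 and 144.8 at 5 days. These groups overlapped, and the log2 fold changes were -0.31 and -0.23 (adjusted p = 0.32 and 0.47).

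The MCM2 to MCM7 proteins form the ring that unwinds DNA at the fork. Mcm3 (chr1:20802968-20820312) had normalised counts of 63.1, 60.6 and 102.2 in monoculture, 44.8, 32.0 and 23.7 at 3 days and 50.3, 46.6 and 56.2 at 5 days. All co-culture libraries lay below the monocultures, and the 3-day libraries were the lowest. Its log2 fold change was -1.15 (SE 0.27, limma adjusted p = 0.0066) at 3 days and -0.51 (SE 0.27, adjusted p = 0.19) at 5 days. The 5-day minus 3-day difference of 0.63 did not pass the test (adjusted p = 0.18). Mcm4 had normalised counts of 61.9, 71.1 and 104.8 in monoculture, 41.5, 40.4 and 52.9 at 3 days and 39.5, 55.0 and 41.2 at 5 days. The co-cultures were lower without overlap, by a log2 fold change of -0.78 at both times (SE 0.25, adjusted p = 0.036 and 0.032). Both Mcm4 calls were lost without monoculture replicate 2 or monoculture replicate 3, the 3-day call also without 3-day replicate 1 or 2, and the 5-day call also without 5-day replicate 1 or 3.

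The other MCM subunits did not pass the test. Mcm2 had normalised counts of 42.1, 52.9 and 86.8 in monoculture, 51.5, 37.6 and 25.0 at 3 days and 39.5, 29.8 and 49.9 at 5 days, and the groups overlapped. Mcm7 had 87.3, 88.4 and 129.8 in monoculture, 91.3, 65.4 and 76.5 at 3 days and 82.7, 68.0 and 68.7 at 5 days, where the 5-day libraries were all lower (log2 fold change -0.45, SE 0.22, adjusted p = 0.15). Over Mcm2, Mcm5, Mcm6 and Mcm7, log2 fold changes ran from -0.65 to -0.08 at 3 days and from -0.56 to 0.15 at 5 days. Subunits of 1 complex thus differed in whether they passed, and the differences between subunits were not tested.

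Tk1, the thymidine kinase that salvages thymidine, had normalised counts of 45.2, 42.3 and 63.0 in monoculture, 26.6, 28.5 and 25.0 at 3 days and 30.5, 30.7 and 51.2 at 5 days. The 3-day libraries were the lowest and lay close together, with a log2 fold change of -0.87 (SE 0.27, limma adjusted p = 0.031), and the 5-day libraries overlapped the monocultures (-0.43, adjusted p = 0.27). Its 3-day call was lost without monoculture replicate 1, monoculture replicate 3 or any single 3-day library. Rfc5, a subunit of the clamp loader, had normalised counts of 30.9, 42.8 and 48.2 in monoculture, 26.6, 34.1 and 37.6 at 3 days and 22.5, 20.5 and 18.7 at 5 days. Here the 5-day libraries were below all others, with a log2 fold change of -0.93 (SE 0.26, limma adjusted p = 0.017) against the monoculture. That call was lost without monoculture replicate 2, monoculture replicate 3 or 5-day replicate 3.

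Pcna, the sliding clamp that Rfc5 helps to load, had normalised counts of 53.8, 85.1 and 91.9 in monoculture, 41.5, 47.3 and 83.5 at 3 days and 63.8, 122.9 and 67.4 at 5 days. No group stood apart (log2 fold changes -0.45 and 0.11, adjusted p = 0.34 and 0.84). Gins2, part of the GINS complex of the active helicase, had 87.9, 98.5 and 152.3 in monoculture, 89.7, 57.1 and 69.6 at 3 days and 70.1, 95.9 and 132.3 at 5 days, again with overlap (adjusted p = 0.12 and 0.67). The primase Prim1, the polymerase subunit Pola1 and the clamp loader subunit Rfc4 were below a group mean of 25 throughout, and none passed. Cdc6, which loads the MCM ring, and the thymidylate synthase Tyms were not tested, with values up to 2.6 and 5.1.

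Among the G2 and mitosis genes, 8 of 23 tested (34.8%) were lower after 5 days of co-culture (Ccna2, Cdc20, Cdca3, Birc5, Plk1, Kif20a, Nusap1 and Ube2c). After 3 days 1 of 23 (4.35%) was lower, Kif20a, and 0 were higher at either time by limma, edgeR or DESeq2. Of all genes tested, limma called 11.4% lower and 12.6% higher at 5 days, and 9.37% and 10.6% at 3 days. Compared directly, 2 of 23 were lower at 5 than at 3 days, where 3.71% of all genes were. The median log2 fold change was -0.70 at 5 days, with 22 of 23 negative, and -0.21 at 3 days, with 17 of 23 negative. Without monoculture replicate 3, 2 of 23 were lower at 5 days, with a median of -0.54 and 20 negative, and 0 were lower at 3 days, with a median of 0.07. The 5-day count was also 4 without 5-day replicate 1 and 5 without 5-day replicate 2, and the 3-day count was 0 without 3-day replicate 3 and 2 without 3-day replicate 2. Ube2c (chr2:164769898-164778822), the ubiquitin-conjugating enzyme of the anaphase-promoting complex, had normalised counts of 170.8, 153.3 and 264.2 in monoculture, 262.4, 179.6 and 175.3 at 3 days and 80.0, 69.9 and 88.6 at 5 days. The monoculture and 3-day libraries overlapped, and every 5-day library was below both. The log2 fold change at 5 days was -1.26 (SE 0.23, limma adjusted p = 8.0e-04), and at 3 days it was 0.08 (adjusted p = 0.83). Cdc20, an activator of the same complex, had 61.3, 50 and 79.7 in monoculture, 41.5, 47.3 and 22.3 at 3 days and 29.6, 24.2 and 32.5 at 5 days. All co-culture libraries were below the monocultures, with log2 fold changes of -0.81 (SE 0.29, adjusted p = 0.063) at 3 days and -1.10 (SE 0.29, adjusted p = 0.011) at 5 days. The 5-day Cdc20 call was lost only without monoculture replicate 3, among the 20 alternatives.

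Of the mitotic kinases tested, Plk1 alone passed at 5 days, and differences between the kinases were not tested. Plk1 (chr7:122159439-122169873), which drives mitotic entry and spindle assembly, had normalised counts of 52.6, 63.0 and 75.8 in monoculture, 56.5, 33.4 and 44.5 at 3 days and 14.4, 37.3 and 26.2 at 5 days. The 5-day libraries were below all monocultures and the 3-day libraries overlapped both groups. The log2 fold change was -1.35 (SE 0.32, limma adjusted p = 0.0054) at 5 days and -0.52 (SE 0.32, adjusted p = 0.27) at 3 days. The kinases Aurka and Aurkb had 5-day log2 fold changes of -0.57 and -0.64 (adjusted p = 0.19 and 0.17), and the checkpoint kinase Bub1b had -0.70 (adjusted p = 0.19). Birc5, survivin, works in a complex with Aurkb. Its normalised counts were 65.0, 77.4 and 99.6 in monoculture, 63.1, 68.2 and 73.7 at 3 days and 25.2, 48.4 and 67.4 at 5 days. It was lower at 5 days (log2 fold change -0.85, SE 0.30, adjusted p = 0.046) although 5-day replicate 3 exceeded monoculture replicate 1. The Birc5 call was lost in 8 of 20 alternatives, among them those without monoculture replicate 2, monoculture replicate 3, 3-day replicate 1, 3-day replicate 2, 5-day replicate 1 or 5-day replicate 2. Cdca8, a further subunit of that complex, had 52.6, 56.7 and 84.8 in monoculture, 53.1, 66.8 and 33.4 at 3 days and 38.6, 39.1 and 43.7 at 5 days, with no overlap at 5 days but an adjusted p of 0.11.

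Of the mitotic cyclins, cyclin A2 passed the test at 5 days and the B cyclins did not, and differences between them were not tested. Ccna2, cyclin A2, had normalised counts of 31.6, 41.3 and 54.0 in monoculture, 34.9, 21.6 and 34.8 at 3 days and 21.6, 24.2 and 22.5 at 5 days. The 5-day libraries lay below all monocultures, with a log2 fold change of -0.83 (SE 0.28, limma adjusted p = 0.04), and that call was lost under quantile normalization and without monoculture replicate 2, monoculture replicate 3 or any single 5-day library. Ccnb2, cyclin B2, had 31.6, 49.0 and 70.7 in monoculture, 66.4, 47.3 and 73.7 at 3 days and 30.5, 25.1 and 37.5 at 5 days. Every 5-day library was below every 3-day library, but the difference of -0.98 (SE 0.29, adjusted p = 0.055) did not pass. Ccnb1, cyclin B1, had a 5-day log2 fold change of -0.96 (SE 0.42, adjusted p = 0.11) against the monoculture. Cdca3, which promotes mitotic entry by way of protein degradation, had 44.6, 52.9 and 73.3 in monoculture, 49.8, 42.5 and 52.9 at 3 days and 26.1, 33.5 and 30.0 at 5 days. Its 5-day libraries were below all others, with a log2 fold change of -0.89 (standard error 0.24, adjusted p = 0.015), and the call was lost without monoculture replicate 3 or 5-day replicate 1.

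Of the spindle motors and spindle proteins, Kif20a and Nusap1 were lower. Kif20a, a kinesin of the central spindle, had normalised counts of 21, 20.7 and 37.9 in monoculture, 10.0, 11.1 and 9.7 at 3 days and 11.7, 13.0 and 6.2 at 5 days. Every co-culture library was below the monocultures, with log2 fold changes of -1.23 (SE 0.36, limma adjusted p = 0.023) and -1.29 (SE 0.36, adjusted p = 0.015). These values rest on 29 reads at 3 days and 32 at 5 days. Both calls were lost without monoculture replicate 3, the 3-day call also without 3-day replicate 3, and the 5-day call also without 5-day replicate 3. Nusap1, a microtubule-binding spindle protein, had 5.0, 15.9 and 18 in monoculture, 5.0, 2.8 and 15.3 at 3 days and 3.6, 1.9 and 3.7 at 5 days. The 5-day libraries lay below all monocultures but hold 9 reads together (log2 fold change -1.65, SE 0.57, adjusted p = 0.045), and the call was lost under quantile normalization and without monoculture replicate 2, monoculture replicate 3 or any single 5-day library. The kinesins Kif11 and Kif23 and the spindle factor Tpx2 had 5-day log2 fold changes of -1.19, -0.58 and -0.48, none past the threshold.

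The antigen Ki-67, encoded by Mki67 and used widely as a label of cycling cells, did not pass at either time. Its normalised counts were 73.6, 25.5 and 53.3 in monoculture, 41.5, 64.0 and 37.6 at 3 days and 17.1, 19.6 and 38.7 at 5 days. The 5-day group overlapped the monocultures at their lowest library (log2 fold change -0.95, SE 0.38, limma adjusted p = 0.079), and DESeq2 called it lower. Top2a, the topoisomerase that untangles chromosomes, had 73.6, 90.4 and 133.0 in monoculture, 74.7, 84.2 and 111.3 at 3 days and 68.3, 79.2 and 107.4 at 5 days. The 3 groups spanned nearly the same range, with log2 fold changes of -0.11 and -0.20 (adjusted p = 0.8 and 0.62). The condensin subunits Smc2 and Smc4 had 5-day values of -0.08 and 0.42, and Smc4 was the only G2 and mitosis gene tested that was not negative at 5 days. Bub1, Hmgb2 and Stmn1 were not tested, with highest values of 5.6, 5.0 and 6.2.

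The comparison of 5 with 3 days of co-culture does not use the monocultures, apart from the shared estimate of spread, and tests whether the 2 co-culture times differ. Cenpa and Ube2c were lower at 5 days and 0 of 44 members were higher. The 2 lower members were 4.55% of those tested, near the 3.71% of all genes called lower, and 3.20% of all genes were called higher. Both belong to the G2 and mitosis class, as do 23 of the 44 members tested. Cenpa (chr5:30666777-30674830), the histone variant that marks centromeres, had normalised counts of 70.6, 101.9 and 136.3 in monoculture, 139.5, 129.5 and 180.9 at 3 days and 69.2, 66.1 and 76.2 at 5 days. The 5-day libraries were well below the 3-day libraries, and the monocultures lay across both. The log2 fold change was -1.07 (SE 0.23, limma adjusted p = 0.012) between the co-cultures, while against the monoculture it was 0.57 (adjusted p = 0.099) at 3 days and -0.49 (adjusted p = 0.15) at 5 days. For Ube2c the difference between the co-cultures was -1.34 (SE 0.23, limma adjusted p = 0.0024). The centromere motor Cenpe (-1.05, adjusted p = 0.1) and the kinase Aurka (-0.83, adjusted p = 0.11) also had no overlap between the co-cultures but did not pass.

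By class, the median difference between 5 and 3 days was -0.63 for the 23 G2 and mitosis genes, 0.09 for the 15 replication genes and 0.33 for the 6 G1 genes, beside -0.01 over all genes tested. Over the analyses with 1 library left out, these medians ran from -0.69 to -0.41, from 0.08 to 0.18 and from 0.22 to 0.48. All 3 libraries at 5 days were below all 3 at 3 days for 6 of 23 G2 and mitosis genes and 1 of 15 replication genes, where 12.9% of all genes tested showed that order. They were all above for 2 replication genes, Mcm3 and Tk1, and 1 G1 gene, Ccnd2, where 11.7% of all genes did so. Whether the classes differ from each other was not tested.

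**Figure D3:**
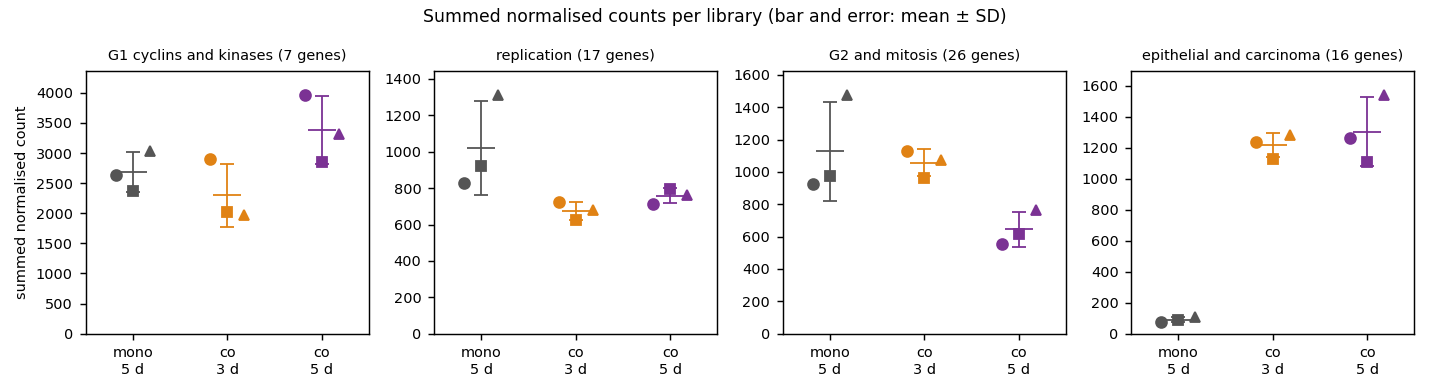
Summed normalised counts of each class per library, with mean and SD of the 3 libraries of a group (vertical axes start at 0; horizontal axis: culture group). The G2 and mitosis sum is 556.5 to 761.6 at 5 days of co-culture and at or above 926.7 in every other library, the replication sum is at or above 827.4 in the monocultures alone, and the epithelial and carcinoma markers sum to 74.7 to 105.9 in the monocultures and to 1107.6 or more in the co-cultures.

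Summed over the 26 G2 and mitosis genes with a row, normalised counts were 926.7, 976.4 and 1478.0 in monoculture, 1129.2, 963.9 and 1074.1 at 3 days and 556.5, 614.7 and 761.6 at 5 days. The 5-day libraries were the lowest, and the 3-day libraries lay within the monoculture range. That range reaches 1478.0 through monoculture replicate 3 alone. Without it, the 3-day sums of 1129.2 and 1074.1 lay above both other monocultures and that of 963.9 lay between them. The 17 replication genes summed to 827.4, 923.8 and 1314.5 in the monocultures, 724.0, 624.3 and 677.6 at 3 days and 714.3, 796.3 and 762.7 at 5 days. For these genes both co-culture groups were below all monocultures. The 7 G1 genes summed to 2377.4 to 3032.4 in the monocultures, 1972.8 to 2904.4 at 3 days and 2850.9 to 3971.2 at 5 days. Sums are weighted by the genes with the most reads and are given as a description.

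**Figure D4:**
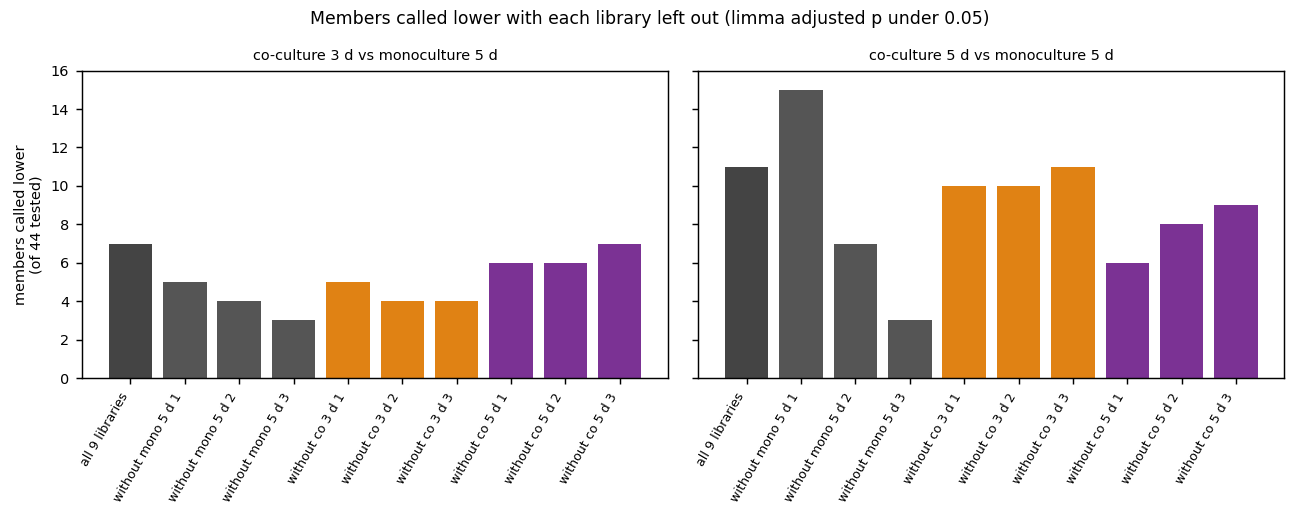
Number of the 44 tested members called lower than the monoculture (limma adjusted p under 0.05) with all 9 libraries and with each library left out in turn, at 3 days (left) and 5 days (right) of co-culture. Counts run from 3 to 7 in the left panel and from 3 to 15 in the right, and the lowest in both is without monoculture replicate 3. Fits without a library hold fewer samples, and the shares of all genes called in them are not shown.

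The counts of lower members changed when single libraries were left out. Those fits hold fewer samples, and whether the change is particular to these members was not tested. At 3 days the count of 7 became 3 without monoculture replicate 3, and 4 without monoculture replicate 2, 3-day replicate 2 or 3-day replicate 3. At 5 days the count of 11 became 3 without monoculture replicate 3, 6 without 5-day replicate 1, 7 without monoculture replicate 2 and 15 without monoculture replicate 1. The 2 higher cyclins at 5 days were both lost without monoculture replicate 2, 5-day replicate 1 or 5-day replicate 3. The calls that held in all 20 alternatives were those of Mcm3 and Rrm2 at 3 days, Plk1, Rrm2 and Ube2c at 5 days, and Cenpa and Ube2c between the co-cultures, 7 of 22 in all.

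Other genes of the same pathways were taken from 5 lists of 115 genes, 105 of them tested. At 5 days 16 (15.2%) were lower and 4 (3.81%) higher than in the monoculture, where 11.4% of all genes were lower and 12.6% higher. At 3 days 4 (3.81%) were lower and 4 (3.81%) higher, where 9.37% and 10.6% of all genes were. The lower share was thus near that of all genes at 5 days and under it at 3 days, and the higher share was under it at both times. Without monoculture replicate 3 the lower ones numbered 7 at 5 days and 1 at 3 days. Most of the lower ones came from mitosis and kinetochore genes, where 14 of 41 tested were lower at 5 days and 3 of 41 at 3 days, with medians of -0.73 and -0.23. Without monoculture replicate 3 these counts were 5 and 0, and without 5-day replicate 1 the 5-day count was 8. Spc24, a subunit of the NDC80 kinetochore complex, had means of 41.9, 30.3 and 12.7 in the monoculture, 3-day and 5-day groups, and was lower at 5 days than in the monoculture (log2 fold change -1.65, SE 0.28, limma adjusted p = 3.9e-04). Kif18b, a kinesin of astral microtubules, had 56 reads in the monocultures, 14 at 3 days and 1 at 5 days. Scaled to what a read is worth, the monoculture level was 34.1 times that at 5 days, with an exact 95% counting interval of 5.88 to 1371. Cks1b, a small partner of cyclin-dependent kinases, and Cenph, a kinetochore protein, were lower at 3 days (-0.75 and -1.17, adjusted p = 0.014 and 0.019), and both calls were lost without monoculture replicate 3, that of Cenph also without 3-day replicate 2.

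Between 5 and 3 days, 5 of 41 mitosis and kinetochore genes (12.2%) were lower, where 3.71% of all genes tested were. The count was 3 without 3-day replicate 1, 3-day replicate 2 or 5-day replicate 1. Pttg1, the securin that inhibits separase until anaphase, had normalised counts of 109.6, 95.4 and 103.0 at 3 days and 31.4, 49.4 and 36.2 at 5 days, and Hmmr, a spindle protein, had 33.2, 32.7 and 44.5 and 9.9, 14.9 and 11.2. Neither pair of groups overlapped, and the log2 fold changes were -1.40 (adjusted p = 0.0029) and -1.54 (adjusted p = 0.0035).

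Few genes of origin licensing, of the replication fork and of the E2F family passed. Of all genes tested, limma called 9.37% lower and 10.6% higher at 3 days, and 11.4% and 12.6% at 5 days. Gins4, a GINS subunit, was the 1 of 15 origin genes that was lower at 5 days (-0.94, SE 0.21, limma adjusted p = 0.0041). Among 23 fork genes, Chaf1a, a chromatin assembly factor, was lower at 3 days (-0.76, adjusted p = 0.038; lost without any single monoculture or 3-day library), and Rpa3, a subunit of the single-strand binding protein, at 5 days (-1.75, adjusted p = 8.2e-04). Of 19 E2F and pocket protein genes, those that passed were E2f5 and E2f4, which repress with the pocket proteins. E2f5 was higher at both times (1.09 and 1.13, adjusted p = 0.015 and 0.011), and E2f4 at 5 days (0.78, SE 0.20, adjusted p = 0.01). These calls were lost without monoculture replicate 1, the 3-day call of E2f5 also without 3-day replicate 2, and that of E2f4 also without 5-day replicate 3.

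The inhibitors of cyclin-dependent kinases were mixed. At 3 days 3 of 7 were higher (Cdkn1a, Cdkn2a and Cdkn2b), where 10.6% of all genes tested were. Yet 4 of 7 had negative log2 fold changes and the median was -0.15. At 5 days 2 of 7 were higher (Cdkn1a and Cdkn2b), where 12.6% of all genes tested were. At that time 3 of 7 were negative and the median was 0.17. Cdkn2b, which encodes p15 and blocks CDK4 and CDK6, had normalised counts of 123.2, 95.7 and 104.8 in monoculture, 328.8, 315.3 and 498.1 at 3 days and 498.7, 557.0 and 625.5 at 5 days. The groups did not overlap, and the log2 fold changes were 1.79 (SE 0.20, limma adjusted p = 1.2e-05) and 2.37 (SE 0.20, adjusted p = 3.6e-07). Cdkn1a, which encodes p21, had 1671.0, 1426.7 and 1468.6 in monoculture, 3291.3, 2501.9 and 2884.1 at 3 days and 2594.8, 2752.2 and 1880.1 at 5 days. All co-culture libraries exceeded the monocultures, with log2 fold changes of 0.92 (SE 0.19, adjusted p = 0.0026) and 0.65 (SE 0.19, adjusted p = 0.02). The 5-day call of Cdkn1a was lost without monoculture replicate 2, monoculture replicate 3, 5-day replicate 1 or 5-day replicate 2.

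Cdkn2a, which encodes p16 and ARF, had normalised counts of 421.5, 193.7 and 269.3 in monoculture, 675.9, 407.2 and 424.3 at 3 days and 378.3, 332.5 and 250.9 at 5 days. The groups overlapped. The log2 fold change was 0.80 (SE 0.27, limma adjusted p = 0.044) at 3 days and 0.17 (adjusted p = 0.7) at 5 days. The 3-day call of Cdkn2a was lost with edgeR (adjusted p = 0.054) and in 6 of 9 analyses with 1 library left out, namely without monoculture replicate 2 or 3, 3-day replicate 1 or 2, or 5-day replicate 1 or 2. The most negative inhibitor at 3 days was Cdkn1c, which encodes p57 and was picked out after its values were seen, with 14.2, 11.5 and 4.5 in monoculture and 1.7, 0.7 and 5.6 at 3 days. Its libraries overlapped and held 6 reads together at 3 days (log2 fold change -1.70, SE 0.59, limma adjusted p = 0.052). Cdkn1c was called lower by edgeR (adjusted p = 0.035) and by limma without monoculture replicate 3 or 3-day replicate 3.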

How the data were processed

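Per the submitters' processing notes, the tools were bcl2fastq, STAR 2.4.2a on mm10 and HTSeq. The annotation, strand setting, filter and scaling are not given in the sources used here. Reads of near-identical copies could therefore be left uncounted or misassigned, and antisense partners cannot be told apart. The authors deposited normalised counts, a signal rounded to 1 decimal. Low values were whole multiples of 1 read, and division gave whole reads, within 0.051, for 99.98% to 100.00% of the values in each library. Members and lists were chosen with earlier results of these data known.

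Genes were tested with limma 3.58.1 (R 4.3.3; two-sided, lmFit, eBayes with trend) on log2(value + 1), with 1 mean per group over all 9 libraries, for 10639 genes at 5 or more in at least 3 libraries, leaving out 1292. Benjamini-Hochberg adjustment ran over all of them, with a threshold of 0.05. Fold changes on this scale understate changes of low genes. On the recovered reads, edgeR 4.0.16 called 1157 genes higher and 1082 lower at 3 days, 1387 and 1349 at 5 days, and 311 and 366 between 5 and 3 days, and DESeq2 1.42.0 was a further alternative. Others were no filter, a filter at a mean of 20, pseudocounts of 0.5 and 5, TMM, median-of-ratios and quantile rescaling, a replicate block, a fit of the compared groups, and leaving out each library. Scripts were tested on simulated data. Counting intervals are exact and cover counting error only. Gene positions are from GENCODE M21 and promoters from RefSeq. All members were named, those called or with a group mean of at least 50 library by library, and up to 2 called genes of each pathway list and comparison by the smallest adjusted p.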

Additional observations from a re-analysis of the deposited data

Results flagged for a closer look

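For 2 of 44 members tested (4.55%) the level was lower at 5 than at 3 days of co-culture, where 3.71% of all genes tested were called lower. With no monoculture of 3 days, a change in the effect of co-culture and 2 more days in culture cannot be told apart. For Cenpa the value at 5 days minus that at 3 days was -1.07 on the log2 scale (limma adjusted p = 0.012), with all 3 libraries lower at 5 days. For Ube2c it was -1.34 (limma adjusted p = 0.0024), again with all 3 libraries lower at 5 days. Both differences passed in all 20 alternatives, with adjusted p up to 0.048 for Cenpa and up to 0.014 for Ube2c.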

How the results depend on the processing

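None of the 22 calls of members changed direction in the alternatives that tested them, 14 passed under all 11 processing alternatives, and 7 passed under all 20. A further 3 calls, both of Kif20a and that of Nusap1, were not tested with the filter at a mean of 20, and 2 of them, those of Kif20a, passed under the other processing alternatives. In those 11, members lower numbered 6 to 7 at 3 days, 8 to 12 at 5 days and 2 to 3 between the co-cultures. The 2 higher at 5 days became 1 under quantile normalization (Ccnd1) and 1 with DESeq2 (Ccnd2). With each library left out in turn, members called lower numbered 3 to 7 at 3 days (0 to 1 higher, 4 to 7 in all), 3 to 15 at 5 days (0 to 2 higher, 5 to 16 in all) and 2 to 3 between the co-cultures (0 higher, 2 to 3 in all); fewer samples entered each of these fits, and the libraries are named in the report. Uncalled values had another sign in some alternative in 32 cases.

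Same-numbered libraries did not deviate together in every pair (correlations from -0.114 to 0.233), so the numbers were not taken as pairs. Between differently numbered libraries the correlations ran from -0.298 to 0.323, the highest being that of 3-day replicate 3 with 5-day replicate 2. With a replicate block, 7 members were lower at 3 days, 11 lower and 2 higher at 5 days, and 3 lower between the co-cultures, where Ccnb2 was added. Depth limits members with few reads: Nusap1 had 9 reads at 5 days, and the 6 untested members had at most 17 in a group.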
